A study of Mus musculus with 24 samples.

Results

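The immune checkpoint genes described here are 10 genes of the 35976 in the deposited tables, taken by symbol. They comprise 5 inhibitory receptors of T and NK cells (Pdcd1, Ctla4, Lag3, Havcr2 and Tigit), the nuclear factor Tox and 4 ligands (Cd274, Pdcd1lg2, Ceacam1 and Lgals9). Their expression was followed by bulk RNA sequencing in CT26 cells, a mouse colon carcinoma line, with and without Sun1, which encodes an inner nuclear membrane protein that connects the nucleus to the cytoskeleton. Whole tumors, collected 14 days after subcutaneous injection into BALB/c mice, gave 7 Sun1 knockout (KO) libraries and 8 libraries of control line 1. Tumor cells purified from such tumors with an isolation kit gave 2 KO libraries, 2 of control line 2 and 2 of control line 1, and cultured cells gave 1 library of each of these lines. The labels name 1 knockout line, so what the loss of Sun1 did and what else sets this line apart cannot be told apart. The labels give neither the knockout allele nor the age of the mice, and they do not say whether libraries of a group came from separate animals. P-values therefore measure the spread between these libraries, which may be partly technical.

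Checkpoint receptors restrain activated lymphocytes. PD-1, the product of Pdcd1, is bound by PD-L1 (Cd274) and PD-L2 (Pdcd1lg2), CTLA-4 competes with CD28 for shared ligands, LAG-3 binds MHC class II, TIGIT binds CD155, and TIM-3 (Havcr2) has been reported to bind galectin-9 (Lgals9) and CEACAM1. TOX is a DNA-binding protein that helps to maintain exhausted CD8+ T cells. Tumor cells and myeloid cells can display PD-L1, which interferon gamma induces, so the ligands, unlike most of the receptors, can come from the tumor cell as well as from the host.

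Depth was 14140769 to 24651279 expected counts per library. Sun1 transcripts were at 50.5 to 64.8 CPM (counts scaled to library size) in KO tumors and 169 to 192 CPM in control tumors, at 50.9 and 55.5 CPM in purified KO cells and 165 to 214 CPM in purified control cells, and at 33.7 CPM in cultured KO cells and 110 and 122 CPM in cultured controls. The libraries labelled KO thus held the least Sun1 RNA in each setting. Of 12 T cell markers, 10 were higher in KO tumors by the test used below, and the summed level of the list was 114 to 201 CPM in KO tumors and 50.3 to 110 CPM in control tumors. In purified cells that sum was 0.688 and 1.74 CPM in KO libraries and 0.185 to 2.49 CPM in control libraries, and in culture it was at most 1.59 CPM.

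Sequence was examined for the 4 genes whose genotype difference was not the same in whole tumors and purified cells (below), and it is shown here so that what stands upstream of them can be read beside those results. The lines show, on the gene's own strand, the 250 bases before the 1 start per gene that RefSeq's promoter table uses (GRCm38.p6): Cd274 at chr19:29367188-29367437 on the plus strand, and Ceacam1 at chr7:25477626-25477875, Lgals9 at chr11:78984925-78985174 and Tigit at chr16:43664185-43664434 on the minus strand. For Cd274, Ceacam1 and Tigit that start lies inside the gene's whole RefSeq span given below, so the windows of these genes lie partly or wholly within that span. Capitals mark the only match found among these 4.
Cd274: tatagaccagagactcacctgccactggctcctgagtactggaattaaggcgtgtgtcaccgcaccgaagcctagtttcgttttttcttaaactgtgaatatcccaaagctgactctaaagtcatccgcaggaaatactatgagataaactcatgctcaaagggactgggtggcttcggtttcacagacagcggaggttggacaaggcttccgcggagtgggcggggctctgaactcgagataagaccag
Ceacam1: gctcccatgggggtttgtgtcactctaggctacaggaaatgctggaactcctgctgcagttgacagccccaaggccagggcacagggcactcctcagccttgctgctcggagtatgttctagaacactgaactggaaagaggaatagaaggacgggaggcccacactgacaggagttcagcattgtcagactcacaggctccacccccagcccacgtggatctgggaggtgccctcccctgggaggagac
Lgals9: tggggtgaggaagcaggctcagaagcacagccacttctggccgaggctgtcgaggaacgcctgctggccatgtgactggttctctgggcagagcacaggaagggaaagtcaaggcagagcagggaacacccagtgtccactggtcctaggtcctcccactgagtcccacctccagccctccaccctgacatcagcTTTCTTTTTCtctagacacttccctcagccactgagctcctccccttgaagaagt
Tigit: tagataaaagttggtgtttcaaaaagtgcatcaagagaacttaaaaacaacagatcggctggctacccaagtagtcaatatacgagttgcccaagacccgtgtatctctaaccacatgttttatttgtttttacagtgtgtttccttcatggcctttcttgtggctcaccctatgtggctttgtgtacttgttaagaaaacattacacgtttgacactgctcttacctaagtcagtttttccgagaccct
The motifs searched on both strands were GAAA and GAAA with any 2 bases between them (the core of the interferon-stimulated response element), TTCNNNGAA (the gamma-activated sequence) and TGANTCA (the AP-1 site). They occur in 2.98%, 7.02% and 6.75% of the 32851 upstream windows of the same length, in that order. Lgals9 held a match to the first, whose first base lies 55 bases before that start, while the windows of Cd274, Ceacam1 and Tigit held none of these letters. RefSeq windows were found for 8 of the 10 genes, and of the other 4, Havcr2 alone held a match, to TGANTCA.

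In whole tumors, 5 of the 10 genes were higher in KO than in control tumors and 1 was lower. Pdcd1, Ctla4, Lag3, Havcr2 and Tox rose by 1.5- to 3.18-fold, and Ceacam1 fell. The quasi-likelihood F test of edgeR, adjusted over the 13752 genes tested with a threshold of 0.05, called 18.1% of all genes higher and 19% lower (37.1% in either direction), so 6 called of 10 stands against a background in which over 1 gene in 3 was called. The median log2 fold change was 0.37 over the 10 genes and 0.01 over all genes tested. In a bulk sample, more cells of a type and more RNA per cell cannot be told apart.

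**Figure D1:**
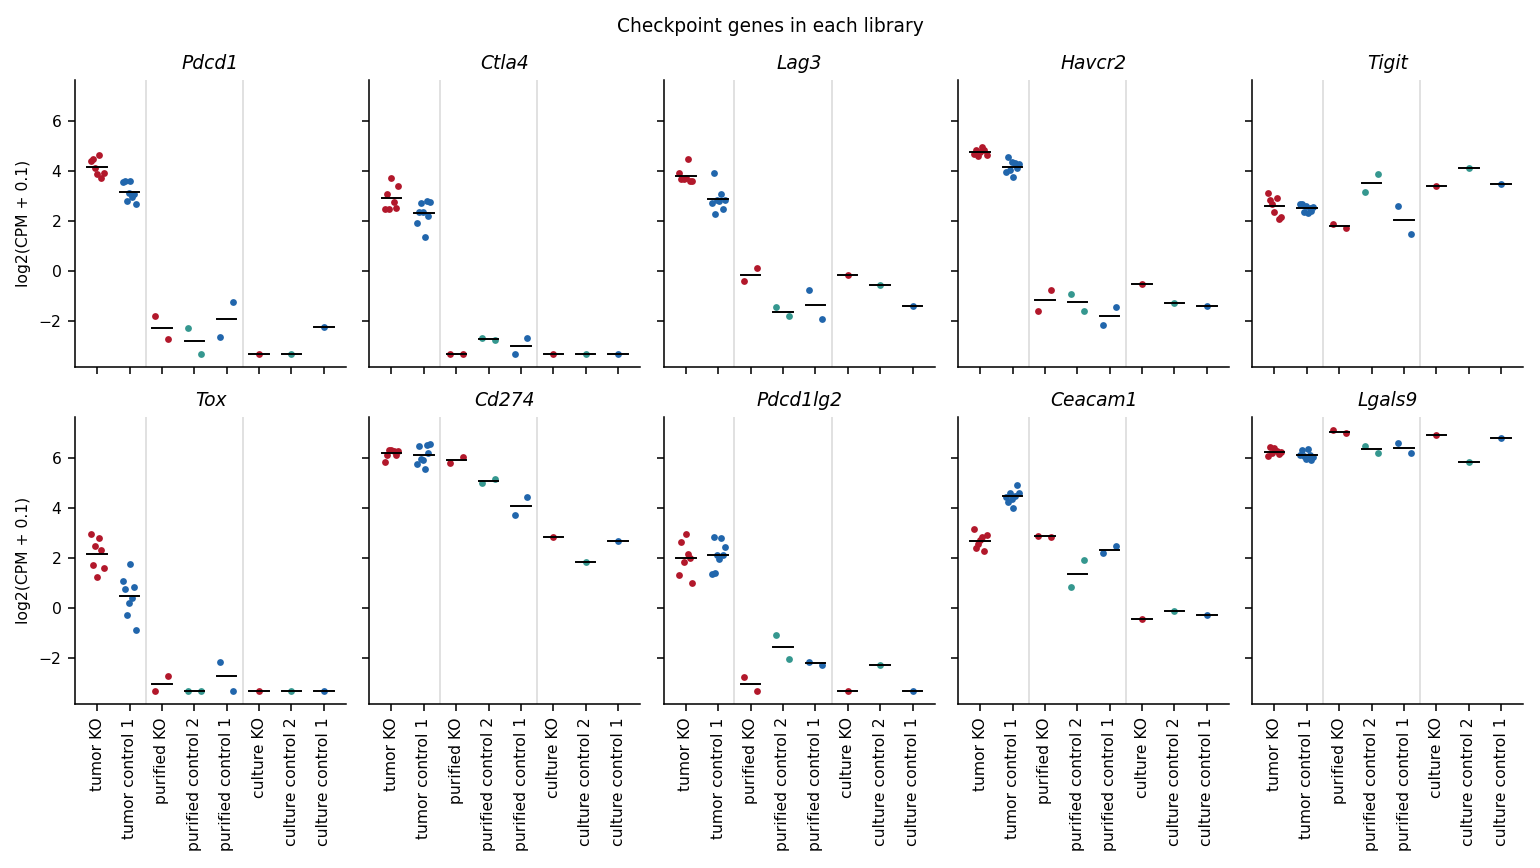
Level of each checkpoint gene in each of the 24 libraries, as log2(CPM + 0.1); points are libraries, bars are group means, red is KO, teal control line 2 and blue control line 1. Pdcd1, Ctla4, Tox and Pdcd1lg2 sat near the bottom of the scale in purified and cultured cells, while Tigit, Cd274 and Lgals9 were counted in all libraries.

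The receptors are taken first. Pdcd1 (chromosome 1, 94038305 to 94052553) ranged over 12.9 to 24.5 CPM with a median of 17.4 in KO tumors, and over 6.26 to 12.0 CPM with a median of 8.48 in control tumors. All KO tumors lay above all control tumors, and the log2 fold change was 1.00 ± 0.17 (SE; edgeR adjusted p = 0.000186). Havcr2 (chromosome 11, 46454931 to 46481255), which encodes TIM-3 on exhausted T cells and also on myeloid cells, ranged over 24.2 to 30.9 CPM with a median of 26.5 in KO tumors, and over 13.3 to 23.3 CPM with a median of 18.2 in control tumors. Here too the genotypes did not overlap, with a log2 ratio of 0.59 ± 0.10 (edgeR adjusted p = 0.000152). The summed macrophage and monocyte markers were at 1020 to 2245 CPM in KO tumors and 674 to 1790 CPM in control tumors, and their part in the Havcr2 difference was not tested.

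Lag3 (chromosome 6, 124904359 to 124912434) ranged over 11.8 to 22.4 CPM with a median of 12.7 in KO tumors, and over 4.78 to 14.9 CPM with a median of 6.86 in control tumors. The overlap came from 1 library, control tumor 2, and the next highest control tumor had 8.24 CPM. The log2 fold change was 0.91 ± 0.21 (edgeR adjusted p = 0.00295). Ctla4 (chromosome 1, 60909025 to 60915832), an inhibitory receptor prominent on regulatory T cells, ranged over 5.38 to 13.1 CPM with a median of 6.68 in KO tumors, and over 2.48 to 6.86 CPM with a median of 5.0 in control tumors. The genotypes overlapped and the difference was close to the threshold, at 0.63 ± 0.23 on the log2 scale (edgeR adjusted p = 0.0364). In the authors' deposited DESeq2 values, which run control over KO, Ctla4 stands at -0.54 with a Wald adjusted p of 0.0588. Leaving out any 1 of 8 of the 15 tumors, or the filter on low counts, ended the call of Ctla4, with adjusted p up to 0.0932. The summed regulatory T cell markers Foxp3, Il2ra and Ikzf2 were at 10.8 to 23.0 CPM in KO tumors and 6.05 to 16.9 CPM in control tumors.

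Tigit was the receptor that was not called. It ranged over 4.15 to 8.54 CPM with a median of 6.18 in KO tumors, and over 4.92 to 6.27 CPM with a median of 5.71 in control tumors. Its log2 fold change was 0.13 ± 0.15 (edgeR adjusted p = 0.509), and KO tumors lay both above and below all control tumors. Tox (chromosome 4, 6686353 to 6991557) had the largest increase of the 10 genes, 1.67 ± 0.34 on the log2 scale (edgeR adjusted p = 0.00125), at a low level. It ranged over 2.23 to 7.68 CPM with a median of 4.83 in KO tumors, and over 0.436 to 3.26 CPM with a median of 1.40 in control tumors. Control tumor 5 was the highest control for Tox and lay above 3 of the 7 KO tumors.

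T cell transcripts were themselves higher in KO tumors, which is why the receptors were also set against them. The summed level of Cd3d, Cd3e and Cd3g, invariant chains of the T cell receptor complex, was 33.6 to 60.6 CPM with a mean of 46.2 ± 8.64 in KO tumors (SD, n = 7) and 13.3 to 28.6 CPM with a mean of 18.0 ± 5.10 in control tumors (SD, n = 8). The genotypes did not overlap in this sum, so genotype and CD3 level can hardly be separated in a joint fit. Ptprc, the pan-leukocyte gene, was at 156 to 241 CPM in KO tumors and 72.2 to 153 CPM in control tumors, again without overlap.

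Per CD3 transcript, the 5 receptors all had lower means in KO tumors. Tigit averaged 0.133 ± 0.031 CPM per CPM of CD3 in KO tumors and 0.330 ± 0.081 in control tumors (SD, n = 7 and 8), without overlap. Havcr2 averaged 0.599 ± 0.111 in KO tumors and 1.05 ± 0.268 in control tumors on the same scale. Pdcd1 averaged 0.396 ± 0.080 in KO tumors and 0.519 ± 0.124 in control tumors, and Lag3 averaged 0.308 ± 0.049 in KO tumors and 0.422 ± 0.111 in control tumors. Ctla4 averaged 0.183 ± 0.104 in KO tumors and 0.310 ± 0.150 in control tumors. Tox, in contrast, had nearly equal ratios of 0.099 ± 0.030 in KO tumors and 0.083 ± 0.045 in control tumors. These ratios are given as a description, since purified and cultured tumor cells held Tigit counts too. They also depend on the denominator. The sum of the 12 T cell markers averaged 153 CPM in KO tumors and 73.5 CPM in control tumors. The median log2 fold change of that list was 0.83. Ratios to it were not computed, so the lower means hold for CD3 transcripts and do not show less receptor RNA per T cell.

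**Figure D2:**
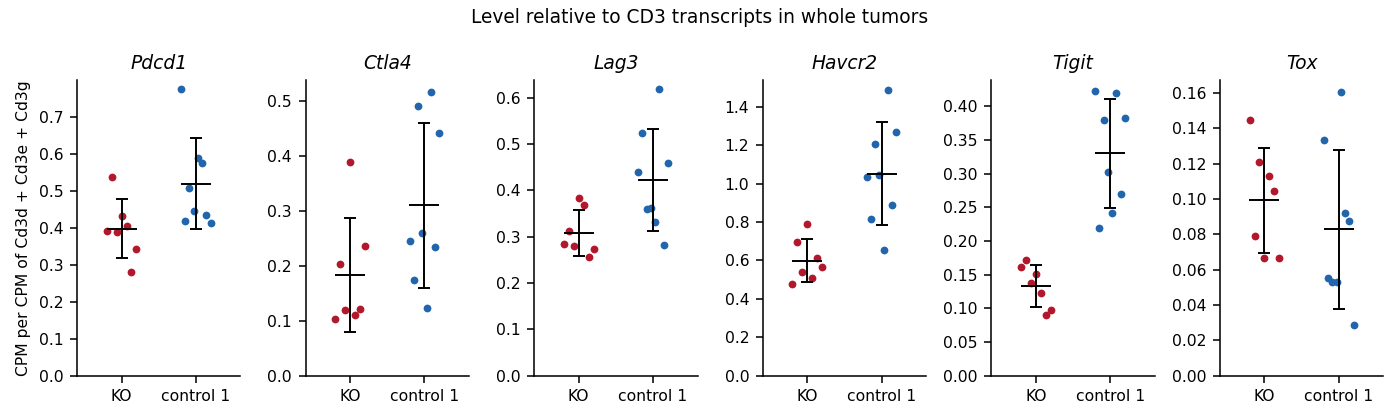
CPM of each receptor and of Tox divided by the summed CPM of Cd3d, Cd3e and Cd3g in each tumor, with the mean and SD; 7 KO tumors are red and 8 control tumors blue, and each panel has its own axis from 0. Tigit ratios lay between 0.090 and 0.172 in KO tumors and between 0.220 and 0.422 in control tumors.

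With the mean log2 CPM of the 3 CD3 genes as a term in the fit, Ceacam1 remained the 1 gene of the 10 that was called (log2 fold change -1.66, edgeR adjusted p = 0.00458). The log2 fold change was then 0.13 for Pdcd1, -0.19 for Lag3, 0.33 for Havcr2 and -0.17 for Tox, and the sign of Lag3 and Tox turned. Ctla4 went the other way, to 1.58, with an adjusted p of 0.0847. With Ptprc as the term, Ctla4 (1.08, adjusted p = 0.0375), Havcr2 (0.47, adjusted p = 0.0450) and Ceacam1 (-1.80, adjusted p = 7.90e-06) were called by edgeR, and Pdcd1 (0.45, adjusted p = 0.119), Lag3 (0.25, adjusted p = 0.522) and Tox (0.66, adjusted p = 0.320) were not.

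**Figure D3:**
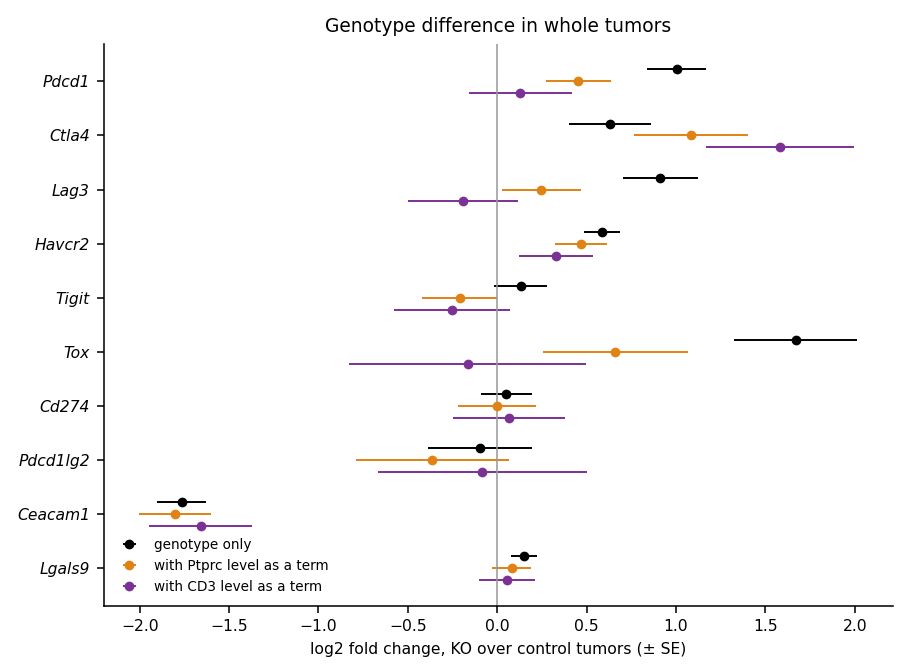
Log2 fold change of KO over control tumors for each checkpoint gene, with its SE, from the fit with genotype alone (black), with the Ptprc level as a term (orange) and with the CD3 level as a term (purple). Ceacam1 lay between -1.80 and -1.66 in all 3 fits. With CD3 in the fit, Ceacam1 alone was called, and the signs of the other genes are not determined.

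Among the ligands, Ceacam1 (chromosome 7, 25461702 to 25477647), an adhesion molecule of epithelial, endothelial and immune cells, fell to a range of 4.71 to 8.73 CPM with a median of 6.43 in KO tumors, against 16.0 to 29.8 CPM with a median of 21.9 in control tumors. All KO tumors lay below all control tumors, and the log2 fold change was -1.77 ± 0.13 (edgeR adjusted p = 9.38e-09). Its close paralog Ceacam2, with which reads could be shared, was at 0 to 0.278 CPM in KO tumors and at 0 CPM in control tumors. The summed fibroblast markers moved with Ceacam1, at 199.8 to 344 CPM in KO tumors and 425 to 529 CPM in control tumors, and the endothelial markers did not, at 83.2 to 128 CPM in KO tumors and 71.1 to 87.8 CPM in control tumors. The fibroblast sum was also 511 and 822 CPM in purified control line 1 cells, where Ceacam1 was at 4.42 and 5.45 CPM. Whether that sum counts host fibroblasts or the tumor cells is not known. The part of either cell type in the Ceacam1 difference was not tested.

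The other ligands were not called in tumors. Cd274 (chromosome 19, 29362107 to 29388095) ranged over 57.1 to 80.5 CPM with a median of 77.1 in KO tumors, and over 46.3 to 94.0 CPM with a median of 66.8 in control tumors, with a log2 ratio of 0.05 ± 0.14 (edgeR adjusted p = 0.807). Lgals9 (chromosome 11, 78962979 to 78984924), a secreted beta-galactoside-binding lectin, ranged over 67.2 to 87.6 CPM with a median of 75.2 in KO tumors, and over 60.2 to 82.3 CPM with a median of 68.2 in control tumors, with a log2 ratio of 0.15 ± 0.07 (edgeR adjusted p = 0.108). Without control tumor 5, Lgals9 was called at 0.19 (adjusted p = 0.0348). Pdcd1lg2 (chromosome 19, 29410919 to 29472927), expressed mainly by dendritic cells and macrophages, ranged over 1.89 to 7.60 CPM in KO tumors and 2.44 to 6.93 CPM in control tumors, with a log2 ratio of -0.10 ± 0.29 (edgeR adjusted p = 0.818). All 3 ligands overlapped between genotypes.

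Other checkpoint genes, 40 in the files and 36 tested, gave 15 higher and 3 lower in KO tumors, with a median log2 fold change of 0.44. Over all 13752 genes tested, 18.1% were called higher and 19% lower. The higher ones included Eomes, a T-box factor of effector and exhausted T cells (log2 fold change 1.31), the inhibitory NK and T cell receptor gene Klrc1 (1.07), Cd244 (0.91), Cd96, a receptor for CD155 (0.86), and Cd200 (0.76). Eomes was also counted in purified cells, at 2.02 and 3.82 CPM in KO and 0 to 0.741 CPM in control (3.44 ± 0.85 on the log2 scale, edgeR adjusted p = 0.0582), and its tumor minus purified difference was -2.59 (edgeR adjusted p = 0.0176). Nectin1 (0.53), Nr4a2 (0.36) and Hmgb1 (0.33) rose less. Those that fell were Pvr, which encodes CD155 (-0.65), Tnfrsf9, the costimulatory receptor 4-1BB (-0.55), and Lgals3, which encodes galectin-3 (-0.37). Tnfrsf9 was also counted in purified cells, at 21.5 and 30.3 CPM in KO and 27.8 to 142 CPM in control. In culture it was at 7.73 to 29.2 CPM. Pvr ranged over 66.8 to 96.4 CPM in KO tumors and 108 to 153 CPM in control tumors, without overlap, while its receptor gene Tigit was not called.

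Purified and cultured cells were examined for which of the 10 genes the tumor cells themselves held, though purified libraries may carry host cells. Ctla4 had 0 counts in both purified KO libraries and in the 3 cultures, and 0 to 1 counts in the purified control libraries. Its level in KO tumors was at least 110-fold higher than in purified KO cells (the group's floor being 3 counts), and in control tumors it was 181-fold higher than in purified control 1 cells, with a 95% counting interval of 32.4 to 7163. Pdcd1 was 156-fold higher in KO tumors than in purified KO cells (66.5 to 479) and 46.0-fold higher in control tumors than in purified control 1 cells (22.2 to 115). Tox, with 0 to 2 counts in each purified library, was 204-fold higher in KO tumors (36.4 to 8051) and 26.8-fold higher in control tumors (7.33 to 223), and Pdcd1lg2 was 179-fold (32.0 to 7094) and 41.3-fold (16.1 to 152) higher. These intervals cover counting error only.

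Havcr2 and Lag3 were low in the tumor cells too. Havcr2 had 5 and 10 counts in purified KO cells, and its log2 fold change was 6.25 ± 0.29 for KO tumors over purified KO cells and 6.49 ± 0.33 for control tumors over purified control 1 cells (edgeR adjusted p = 2.74e-14 and 2.47e-13). Lag3 had 14 and 20 counts, with log2 fold changes of 4.16 ± 0.45 and 4.60 ± 0.53 (edgeR adjusted p = 6.43e-08 and 2.50e-07). In these 2 comparisons edgeR called 56.7% and 52.9% of 15094 genes, and 8 of the 10 checkpoint genes each.

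Tigit stood apart from the other receptors, in that tumor cells with hardly a T cell transcript held it. Cultured cells had 213 counts (10.5 CPM) of Tigit in KO, 330 counts (17.0 CPM) in control line 2 and 199 counts (10.9 CPM) in control line 1, where Cd3d, Cd3e and Cd3g had 0 or 1 count each. Purified cells had 3.53 and 3.19 CPM in KO, 8.69 and 14.4 CPM in control line 2 and 5.88 and 2.70 CPM in control line 1. Purified cells were below cultured cells by 1.16 ± 0.26 on the log2 scale (edgeR adjusted p = 0.00435), although the ranges overlapped. Control line 2 was above control line 1 in purified cells, at 1.45 ± 0.35 (edgeR adjusted p = 0.0177). That call did not hold without library 2 of control line 2 (1.04, adjusted p = 0.0941) or library 2 of control line 1 (0.97, adjusted p = 0.114). In RefSeq, Tigit (chromosome 16, 43626137 to 43665125) overlaps Zbtb20 (42875689 to 43634392) on the opposite strand, and since the strand setting of the counting is not given in the sources used here, reads of the 2 genes cannot be told apart within that overlap. In GENCODE the spans do not overlap, with Tigit at 43648867 to 43664146 and Zbtb20 ending at 43642602, and which annotation was used for counting is not given in the sources used here. Zbtb20 was at 28.4 and 29.9 CPM in purified KO cells and 18.2 to 30.0 CPM in purified control cells, and at 28.1 to 35.0 CPM in culture.

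Among the 3 ligands tested in purified cells, Cd274 had the largest log2 difference between KO and control. It was at 56.0 and 66.3 CPM in KO cells, 31.9 and 35.4 CPM in control line 2 and 12.9 and 21.5 CPM in control line 1. Both KO libraries lay above all 4 control libraries, but with both control lines as 1 arm the log2 fold change of 1.27 ± 0.35 missed the threshold (edgeR adjusted p = 0.0921). It was called against control line 1 alone (1.83, edgeR adjusted p = 0.00496), against control line 2 alone (0.87, edgeR adjusted p = 0.00138) and by DESeq2 (1.28, adjusted p = 0.00178). With 1 library left out, the log2 fold change was 1.05 to 1.47 over 6 fits. Only the fit without library 1 of control line 1 called Cd274 (1.05, edgeR adjusted p = 0.0252). In the authors' deposited table, whose log2 fold changes run control over KO, Cd274 stands at -1.25 with an adjusted p of 0.00198. Control line 2 was above control line 1 in Cd274 by 0.97 ± 0.20 (edgeR adjusted p = 0.0103), in a comparison that called 15.6% of 12476 genes and 2 of the 5 checkpoint genes tested. That call did not hold without either library of control line 2 (adjusted p = 0.0902 and 0.102). The lines also differed in the fibroblast markers Dcn, Dpt, Pdgfra and Lum, whose sum was 130 and 142 CPM in KO cells, 84.9 and 104 CPM in control line 2 and 511 and 822 CPM in control line 1, and its part in the Cd274 difference was not tested.

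Lgals9 was the 1 checkpoint gene called between purified KO and control cells, where 5 of the 10 passed the filter on low counts and edgeR called 4.55% of 12476 genes (2.26% higher). It was at 137 and 126 CPM in KO cells, 89.0 and 73.8 CPM in control line 2 and 96.5 and 73.3 CPM in control line 1. Both KO libraries lay above all controls, with a log2 ratio of 0.67 ± 0.14 (edgeR adjusted p = 0.0278). The call did not hold without either KO library or without the lower library of either control line (adjusted p 0.0511 to 0.225). Ceacam1 was at 7.30 and 7.02 CPM in KO cells, 1.69 and 3.65 CPM in control line 2 and 4.42 and 5.45 CPM in control line 1, above all controls but not called (0.92 ± 0.38, edgeR adjusted p = 0.201). Lag3 (1.57 ± 0.63, edgeR adjusted p = 0.187) and Tigit (-1.23 ± 0.59, edgeR adjusted p = 0.276) were not called either. Against control line 2 alone, edgeR called Ceacam1 higher (1.42, adjusted p = 0.0155) and Tigit lower (-1.77, adjusted p = 0.00150). That fit called 2322 of 12219 genes. Against control line 1 alone, the line of the control tumors, neither was called, in a fit that called 2896 of 12201 genes.

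The genotype difference in whole tumors minus that in purified cells was tested as an interaction, in which edgeR called 12.7% of 15094 genes and 4 of the 10 checkpoint genes. Ceacam1 had -2.74 ± 0.28 on the log2 scale (edgeR adjusted p = 9.28e-07), as it was lower in KO tumors and not lower in purified KO cells. Cd274 had -1.29 ± 0.28 (edgeR adjusted p = 0.00670) and Lgals9 had -0.52 ± 0.15 (edgeR adjusted p = 0.0212), both with the larger KO excess in purified cells. Tigit had 1.19 ± 0.34 (edgeR adjusted p = 0.0227), and with control line 1 alone it was 0.47 and not called (adjusted p = 0.457), nor was Lgals9 (-0.49, adjusted p = 0.0555). Tigit was not called without any 1 of 4 of the 6 purified libraries, which were both KO libraries, library 2 of control line 2 and library 1 of control line 1 (adjusted p 0.0597 to 0.146). Lgals9 was not called without either KO library or library 2 of control line 1 (adjusted p 0.0640 to 0.122), nor Cd274 without KO library 2 (adjusted p = 0.0661), which left Ceacam1 as the 1 called gene of the 10.

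**Figure D4:**
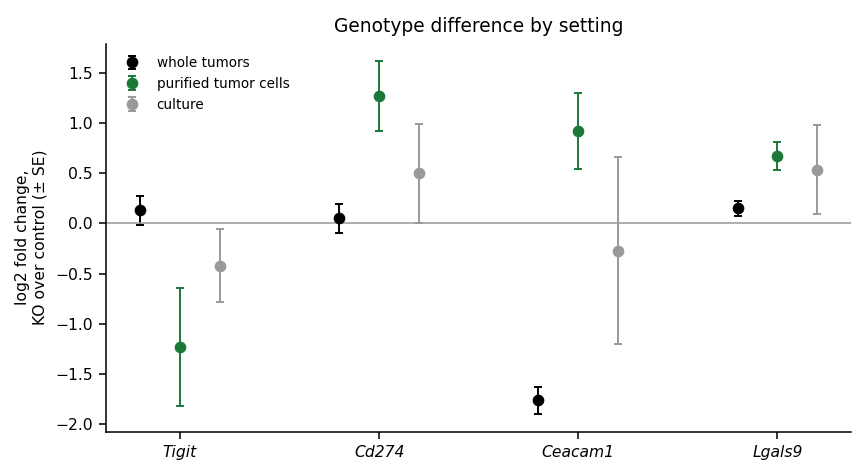
Log2 fold change of KO over control, with its SE, for Tigit, Cd274, Ceacam1 and Lgals9 in whole tumors (black), purified tumor cells (green) and culture (grey). Ceacam1 was at -1.77 in tumors and 0.92 in purified cells, and Cd274 was at 0.05 in tumors and 1.27 in purified cells.

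Set side by side within each line, KO tumors and purified KO cells had nearly the same Ceacam1 level, with a log2 ratio of -0.12 ± 0.22 (edgeR adjusted p = 0.658), while control tumors were above purified control 1 cells by 2.18 ± 0.25 (edgeR adjusted p = 9.36e-08). For Cd274 the values were 0.28 ± 0.23 in KO (edgeR adjusted p = 0.307) and 2.06 ± 0.27 in control (edgeR adjusted p = 3.18e-06). Lgals9 was lower in KO tumors than in purified KO cells, at -0.76 ± 0.11 (edgeR adjusted p = 2.77e-06), and in control the difference was -0.27 ± 0.11 (edgeR adjusted p = 0.0508). A p that misses the threshold does not show that the levels were equal.

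Against culture, purified cells of the same 3 lines were higher in Cd274 and Ceacam1. Purified libraries may carry host cells. Their summed macrophage and monocyte markers were at 59.0 to 99.4 CPM, against 31.2 to 52.0 CPM in culture. Their fibroblast markers were at 84.9 to 822 CPM, against 11.9 to 17.3 CPM in culture. Ptprc was at 0.459 and 0.581 CPM in purified KO cells, 0.554 to 2.26 CPM in purified control cells and 0.361 to 0.592 CPM in culture. The part of host cells in the higher Cd274 and Ceacam1 was not tested. Cd274 was at 12.9 to 66.3 CPM in purified cells and at 6.95, 3.46 and 6.31 CPM in cultured KO, control 2 and control 1 cells, without overlap, a log2 ratio of 2.61 ± 0.39 (edgeR adjusted p = 0.00175). Ceacam1 was at 1.69 to 7.30 CPM in purified cells and at 0.641, 0.826 and 0.713 CPM in cultured KO, control 2 and control 1 cells, also without overlap, at 2.66 ± 0.37 (edgeR adjusted p = 0.000131). Lgals9 was at 73.3 to 137 CPM in purified cells and 122, 56.4 and 111 CPM in these cultures, at 0.08 ± 0.16 (edgeR adjusted p = 0.701). Of 12287 genes, 44.3% were called in this comparison, and 3 of the 5 checkpoint genes tested.

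Genes of the interferon gamma response were examined beside these ligands. Irf1 (log2 fold change 2.50), Socs1 (1.95) and the chemokine gene Cxcl9 (2.79) were higher in purified than in cultured cells (edgeR adjusted p = 0.000860, 3.63e-06 and 0.00515), with Cxcl9 at no more than 3.27 CPM in any of these libraries. In tumors, Ifng, the cytokine itself, ranged over 7.65 to 11.3 CPM in KO and 1.98 to 8.06 CPM in control, with a log2 ratio of 1.08 ± 0.22 (edgeR adjusted p = 0.000123), and Socs1 and Irf1 were also called higher, at 0.58 and 0.33, while Cxcl9 was not called (0.63 ± 0.25, edgeR adjusted p = 0.0609). Cd274, a target of this response, was not called in the same tumors. In purified cells Socs1 was at 36.5 and 45.2 CPM in KO and 24.1 to 34.8 CPM in control, at 0.51 ± 0.17 (edgeR adjusted p = 0.134). Irf1 (0.16 ± 0.28, edgeR adjusted p = 0.787) and Cxcl9 (-0.91 ± 0.68, edgeR adjusted p = 0.478) were not called there either.

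In culture, none of the 12175 genes tested differed between KO and control by edgeR (0% called, 660 at an unadjusted p under 0.05), and DESeq2 called 44. Of the 10 checkpoint genes 6 were tested. The lone KO library was above both controls for Cd274 (0.50 ± 0.50) and Lgals9 (0.54 ± 0.44) and below both for Tigit (-0.42 ± 0.36) and Ceacam1 (-0.27 ± 0.93), each with an edgeR adjusted p of at least 0.963. This fit rests on the spread between the 2 control lines and takes the KO library to vary as they do. Whether the Cd274 difference in purified cells exceeded that in culture was tested after its values were seen, and the interaction was 0.79 ± 0.35 (edgeR adjusted p = 0.418), where 0.197% of 13195 genes were called.

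Within a genotype, checkpoint genes varied among tumors in different ways. Ctla4 and Tox ran opposite, with Pearson r = -0.89 and Spearman rho = -0.82 over KO tumors (exact permutation p = 0.00933 and 0.0341, n = 7) and r = -0.87 and rho = -0.86 over control tumors (exact permutation p = 0.00474 and 0.0107, n = 8). Without the 2 tumors farthest from the median of Ctla4, r was -0.67 in KO and -0.71 in control. None of the 90 such relations passed Benjamini-Hochberg adjustment, and the smallest adjusted p was 0.183. The genes most like each checkpoint gene, by Pearson r of log2 CPM over the 15 tumors after removal of the genotype means, were Gusb (0.93), Lrmp (0.93) and Ikzf1 (0.93) for Pdcd1, and Il1rn (0.91), Mxd1 (0.88) and Ell2 (0.87) for Ctla4. For Lag3 they were Samhd1 (0.91), Fam26f (0.87) and Fgl2 (0.86), and for Havcr2 Ogfr (0.88), Thy1 (0.88) and Ly6c1 (0.87). For Tox they were Igsf10 (0.95), Tor4a (0.90) and Hpgds (0.89), and for Tigit Cd74 (0.78), Aldh3b1 (0.77) and Tlr6 (0.77). For Cd274 they were Clec4d (0.87), Acod1 (0.87) and Ftl1 (0.87), for Ceacam1 Tfeb (0.80), Has1 (0.80) and Hspa1b (0.77), for Lgals9 Mcm5 (0.85), Cenpj (0.82) and Mapre2 (0.80), and for Pdcd1lg2 Vwa9 (0.81), Stoml1 (0.81) and Nfu1 (0.80). These are the 3 highest of 10687 or 10688 genes compared for each, over libraries that share depth and tissue makeup, and carry no test.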

How the data were processed

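Per the labels, mRNA was sequenced as paired reads from 24 libraries, and per the submitters' processing notes FastQC, STAR, RSEM and DESeq2 were used with mm10, with versions, annotation release and strand setting not given in the sources used here. The authors deposited, per library, the expected count, TPM and FPKM of each gene from RSEM; TPM and FPKM were used for no test. The authors' deposited DESeq2 tables, 1 per setting, hold per the file headers a mean signal over libraries (normalised counts), the log2 fold change with its SE, the Wald score, and the raw and adjusted p-value. Its sign is not stated; Sun1 is positive in all 3, which makes it control over KO. For Ctla4 and Tigit in tumors its mean signal (50.4 and 195) is not that of the deposited expected counts. The same holds for Tigit in purified cells (211) and in culture (415), so each value is named by its source. Tox and Cd274 overlap antisense models in GENCODE, whose reads cannot be told apart without strand.

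Expected counts were rounded and fitted with edgeR 4.0.16 in R 4.3.3 (TMM, filterByExpr with minimum count 10 and minimum total 15, robust quasi-likelihood F test, Benjamini-Hochberg over all genes tested, threshold 0.05, two-sided). Each KO comparison used its own libraries, the purified and cultured control lines forming 1 arm; tumors against purified cells and the interaction used 1 fit of 21 libraries, and purified against cultured cells had the line as a covariate. SE was taken from the log2 fold change and its F statistic. Printed CPM are scaled by TMM over all 24 libraries. Intervals are 95% exact binomial, and the floor is 3 counts over a group. All samples were grouped from their titles, and 0 columns of samples were unmapped. Replicate libraries differed by more than sampling noise (chi-square per gene at least 7.38).

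Alternatives were DESeq2 1.42.0, its size factors, no filter, each library left out, the replicate number as a block, single control lines, and CD3 or Ptprc content. Replicate numbers come from the titles and do not pair tumors (correlation of deviations -0.21 to 0.33). The checkpoint genes, the other lists and the tests were chosen with earlier results of these data known. Named genes are the 10 checkpoint genes, Sun1, Ceacam2, up to 8 called genes per direction of the other checkpoint list, content and interferon gamma genes, and the 3 genes most like each member; Zbtb20 was added after its values were seen, and 1 gene of the interferon gamma group is not reported here. The steps were tested on simulated data.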

Additional observations from a re-analysis of the deposited data

Results flagged for a closer look

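A library far from the others was sought in 43 sets, each the values of 1 gene in 1 group of 4 to 10 libraries. In all, 5 values were picked out, where chance picks about 1 in 20 sets. The sets share libraries, so they are not independent. Lag3 was 22.4 CPM in KO tumor 5 and 14.9 CPM in control tumor 2, each far above the rest of its group. Control tumor 2 was also far above the other control tumors in Cd3e (6.88 CPM) and Cd3g (16.5 CPM). Ptprc was 72.2 CPM in control tumor 3, far below the other control tumors.

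The genotype difference was not the same in whole tumors and purified cells for 4 checkpoint genes by the interaction test of edgeR, with tumor minus purified log2 values of -2.74 for Ceacam1, -1.29 for Cd274, -0.52 for Lgals9 and 1.19 for Tigit. The control arm of the tumors holds control line 1 and that of the purified cells holds both lines.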

How the results depend on the processing

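For KO against control tumors, 5107 genes and 6 checkpoint genes were called. The CD3 term gave 133 and 1, with Lag3 at -0.19 and Tox at -0.17, neither of them called, and the Ptprc term gave 1351 and 3. Leaving out 1 tumor gave 4523 to 5158 genes and 5 to 6 checkpoint genes. The replicate block gave 4980 and 6 and changed no call of a checkpoint gene. For purified KO against control cells, 4.55% of genes and 1 checkpoint gene were called. DESeq2 gave 1205 and 2, control line 1 alone 2896 and 2, control line 2 alone 2322 and 4, no filter 908 genes, and the replicate block 303 genes. Leaving out 1 library gave 72 to 540 genes and 0 to 2 checkpoint genes. In culture, edgeR called 0 genes, DESeq2 called 44 and edgeR without the filter 93; leaving out 1 of the 2 control libraries was not run, since no residual degree of freedom is left. For the interaction of tumors and purified cells, 1916 genes and 4 checkpoint genes were called, 2 checkpoint genes with control line 1 alone, and 638 to 2196 genes and 1 to 4 checkpoint genes without 1 library. For purified control line 2 against control line 1, 1951 genes and 2 checkpoint genes were called, and 791 to 2215 genes and 1 to 2 checkpoint genes without 1 library. The deviations of library 1 of those lines from their group means correlated weakly, at -0.14. The crossed replicate block, added after seeing the data, called 1896 genes against 1824 with the block as numbered. The cause of these changes was not tested, apart from the fewer libraries in the left-out and single-line fits. With 2 KO libraries in purified cells and 1 in culture, and fewer than 3 counts of Pdcd1lg2 and Tox in most of these, small differences were not detectable at this depth.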
